A study of Homo sapiens with 2 samples.

Results

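Of the 3302 peaks listed on chromosomes 1 to 22 and X for an anti-HA RNA immunoprecipitation, 440 had their midpoint in a 3' untranslated region (3' UTR), the stretch of a messenger RNA between the stop codon and the poly(A) tail. RNA immunoprecipitation sequencing (RIP-seq) was carried out in PLC/PRF5 cells, an established hepatocellular carcinoma line. The cells overexpressed MTR4 carrying an HA tag from a plasmid, and nuclear lysates obtained by sonication were incubated with an HA antibody or with IgG. The study holds 2 libraries, 1 per antibody. The deposited list gives positions called with the anti-HA library and no value per library, so no value below has a replicate and none compares HA with IgG. A peak was counted here when its midpoint lay in a 3' UTR of any transcript of a protein-coding gene, in no coding sequence or 5' UTR, and more than 1000 bases from the start of a canonical transcript, the 1 transcript that the annotation takes as representative of a gene. Every peak was 400 bases wide. The number of reads behind a peak is unknown from the list.

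MTR4 is an RNA helicase that unwinds transcripts and feeds them to the nuclear exosome, the complex that trims or degrades RNA from its 3' end. A 3' UTR does not encode protein. It holds binding sites for regulatory proteins and microRNAs, and near its end the poly(A) signal, AATAAA or the weaker ATTAAA, which directs cleavage of the nascent transcript and addition of the poly(A) tail a short way downstream. In the nucleus this sequence is present both in unfinished precursors and in processed messenger RNA awaiting export.

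Sequence around a poly(A) signal or another element is shown for members named in the results below. All are read 5′ to 3′ on the strand of the gene from hg19 (GRCh37), and capitals mark the element. The members with AATAAA in the peak whose midpoints lay nearest the annotated end were TRMT2A, a tRNA methyltransferase (chr22:20099400-20099429, minus strand), EIF4ENIF1, a carrier of the cap-binding factor eIF4E (chr22:31835368-31835397, minus), TCF12, a transcription factor (chr15:57582019-57582048, plus), RPP30, a subunit of the tRNA-processing enzyme RNase P (chr10:92661916-92661945, plus) and PPDPF (chr20:62153484-62153513, plus). Where a peak held several signals the one that began closest to 20 bases before the annotated end is printed, which was ATTAAA for EIF4ENIF1 and RPP30. Both the members and the printed signals were chosen for closeness to the annotated end, so these runs do not represent the list. The site of cleavage was not measured here:
TRMT2A: tctcaccctcagAATAAAgacatcagccat
EIF4ENIF1: ttcttttggttgATTAAAattgcatatgct
TCF12: taaatatttttaAATAAAtaatattataac
RPP30: aataaaatattgATTAAAaaaacattaaaa
PPDPF: caccaagcggaaAATAAActccaagcagcc
The first base of the signal lay 19 bases before the annotated end in TRMT2A, 32 in EIF4ENIF1, 20 in TCF12, 20 in RPP30 and 63 in PPDPF. A second set shows the poly(A)-like motif that the study described in IGF2BP2 (chr3:185362096-185362125, minus) and EP300 (chr22:41575528-41575557, plus), genes of the lists described below:
IGF2BP2: tcctttcttTAAAAAAAAAAAatgtggagg
EP300: aaaaatgttTAAAAAAAAAAAaaaactgcc
A match to the element of Pumilio proteins, which repress messenger RNAs, is shown for RBM5, a splicing regulator (chr3:50156132-50156161, plus), and EIF4ENIF1 (chr22:31835493-31835522, minus). Binding of Pumilio proteins at these matches was not measured here:
RBM5: ttatactccagTGTACATAgtgtaatgtag
EIF4ENIF1: taaacaactttTGTATATAcatataggata

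The 3' UTR peaks made up 13.3% of the list (440 of 3302, 95% Wilson interval 12.2 to 14.5, which covers counting error only). Coding exons held 694 peaks and later introns, the introns after the first of canonical transcripts, held 969. All 440 lay on 6 chromosomes, with 165 on chromosome 3, 101 on 22, 69 on 15, 55 on 10, 33 on 20 and 17 on 7. Their share of each chromosome's peaks differed. It was 45.9% on chromosome 7 (17 of 37) and 42.9% on chromosome 20 (33 of 77), against 8.44% on chromosome 15 (69 of 818), 10.7% on 10, 12.9% on 3 and 17.8% on 22. The remaining chromosomes held 10 listed peaks in all and no 3' UTR peak. The list thus does not cover the chromosomes evenly, with 3292 peaks on these 6. Whether it is complete could not be determined, so the shares describe the listed peaks alone.

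Counts were then set against the length of sequence that could hold such a peak. On the 6 chromosomes together the 3' UTR carried 46.5 peaks per Mb, coding exons 94.6 per Mb and later introns 4.79 per Mb. The order of 3' UTR and coding exon was not alike across chromosomes. Chromosome 15 had 42.6 per Mb in 3' UTRs and 181.7 in coding exons, and chromosome 3 had 66.5 and 163.1. On chromosome 22 the densities were 129.0 in 3' UTRs and 127.7 in coding exons, and on chromosome 10 they were 32.6 and 42.2. On chromosome 20 they were 34.0 and 31.2, and on chromosome 7 they were 8.84 and 5.89. Thus coding exons were the denser class on 3 chromosomes and 3' UTRs on the other 3, by small margins on chromosomes 20 and 22. Later introns were sparsest on chromosomes 7 and 20, at 0.0625 and 0.224 per Mb, where only 3 and 4 such peaks were listed. Densities of peaks in 1 library have no replicate and were not tested.

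**Figure D1:**
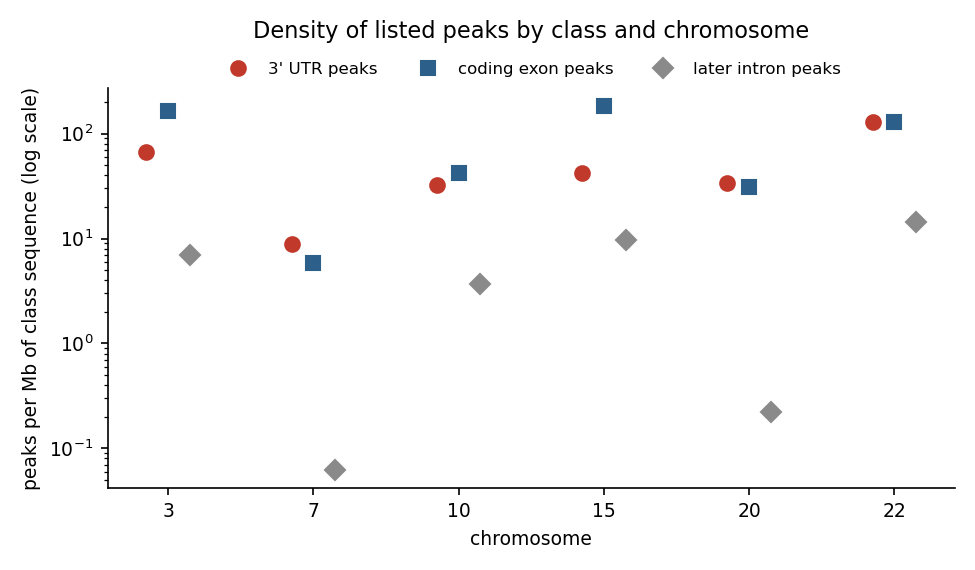
Listed peaks per Mb of sequence of their class on each of the 6 chromosomes (vertical axis on a log scale), for 3' UTRs, coding exons and later introns. The 3' UTR density ran from 8.84 per Mb on chromosome 7 to 129.0 on chromosome 22, and lay far below the coding exon density on chromosomes 3 and 15.

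The 440 peaks fell in the 3' UTRs of 409 genes, 243 peaks on genes of the plus strand and 197 on the minus strand. A single 3' UTR peak was found in 381 genes, 2 in 25 genes and 3 in 3 genes. In the canonical 3' UTR of the gene lay 384 peaks (87.3%), and in 367 of them that 3' UTR was 1 exon. Another 38 lay in the 3' UTR of another transcript typed as protein-coding, and 18 only in transcripts typed as targets of nonsense-mediated decay, a pathway that degrades messages with an early stop codon. Of the peaks outside the canonical 3' UTR, 41 were within introns of the canonical transcript, 11 beyond its 3' end, 1 before its 5' end and 3 in genes without a coding canonical transcript. TRNT1, which adds CCA to tRNAs, had 2 peaks beyond its canonical end, in the longer 3' UTR of another protein-coding transcript. Both midpoints had a gene on the other strand, the first (chr3:3191002-3191401) with an exon there, so their source strand is uncertain. All 400 bases were 3' UTR in 376 peaks, and 93 peaks reached into coding sequence. The list gives no strand for the RNA, and 68 midpoints had a gene on the other strand, 15 of them with an exon there, so the source strand of those is uncertain. At 17 midpoints the 3' UTRs of more than 1 gene overlapped. A small RNA gene (microRNA, snoRNA, scaRNA or snRNA) shared a base with 0 of 440 peaks, a share whose Wilson interval reaches 0.866%. The score was 1 at 2 peaks, which carry the same peak name in the near-identical genes WASHC2C and FAM21D and cannot be assigned to either.

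The 3 genes with 3 peaks were PEX26, ACAD9 and SLC33A1. PEX26, which anchors peroxisomal import factors, has the longest canonical 3' UTR among the members at 17324 bases. Its peaks lay at chr22:18572702-18573101, chr22:18576502-18576901 and chr22:18580302-18580701, that is 2063, 5863 and 9663 bases after the stop codon. The one nearest the annotated end was still 7660 bases before it. ACAD9, a mitochondrial dehydrogenase that helps to assemble respiratory complex I, had 1 peak in its canonical 3' UTR of 510 bases (chr3:128631502-128631901), 1 in a canonical intron and 1 beyond the canonical end. The latter pair rested on transcripts typed as decay targets. SLC33A1, an acetyl-CoA transporter of the endoplasmic reticulum, had peaks 199 and 1899 bases after the stop and 1 in a canonical intron. Among genes with 2 peaks, the next longest 3' UTRs were those of TNRC6B, a scaffold of microRNA silencing complexes, and PPM1L, a protein phosphatase. The TNRC6B peaks lay 1359 and 8159 bases after the stop in a 3' UTR of 12570 bases. The PPM1L peaks lay 2659 and 8659 bases after the stop in one of 9748 bases. Over the 31 neighbouring pairs within 1 gene, starts were 1000 to 119910 bases apart, with a median of 3800, so the peaks of a gene were separate stretches and did not abut.

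Peaks could be placed along the message for the 384 in canonical 3' UTRs. The median distance was 762.5 bases after the stop (quartiles 316 and 1670.75) and 1202.5 bases before the annotated end (quartiles 635.25 and 2272). When each 3' UTR was cut into 3 equal parts, 164 midpoints (42.7%, 37.9 to 47.7) lay in the part nearest the stop, 157 (40.9%, 36.1 to 45.9) in the middle and 63 (16.4%, 13.04 to 20.4) in the part nearest the end. Each part held about 33.3% of the bases where a midpoint could fall. The members were thus fewer toward the end than sequence length alone would give. This comparison is descriptive, since peaks of 1 library are not replicates.

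The deficit was greatest next to the end. Within 200 bases of the end lay 13 midpoints (3.39%, 1.99 to 5.71), where 12.4% of the members' own 3' UTR bases lie. For this share each member counts the bases of its own 3' UTR. Within 400 bases lay 47 (12.2%, 9.33 to 15.9) against 24.4% of bases, and within 1000 bases lay 158 (41.1%, 36.3 to 46.1) against 50.2%. From 800 to under 1600 bases before the end were 29.7% of the members and 22.9% of their bases. At the other end of the 3' UTR, 15.4% (12.1 to 19.3) lay within the 200 bases after the stop against 12.2% of bases, a share whose interval includes that of the bases. The low share near the end was not matched by a low share near the stop. A peak of 400 bases with its midpoint under 200 bases from the end reaches past the transcript, whereas one near the stop runs into coding sequence, and the part of this difference in the result was not tested. Leaving out midpoints within 200 bases of either end, 52 of 314 lay in the part nearest the end (16.6%, 12.9 to 21.1), where 28.5% of the remaining bases lie.

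**Figure D2:**
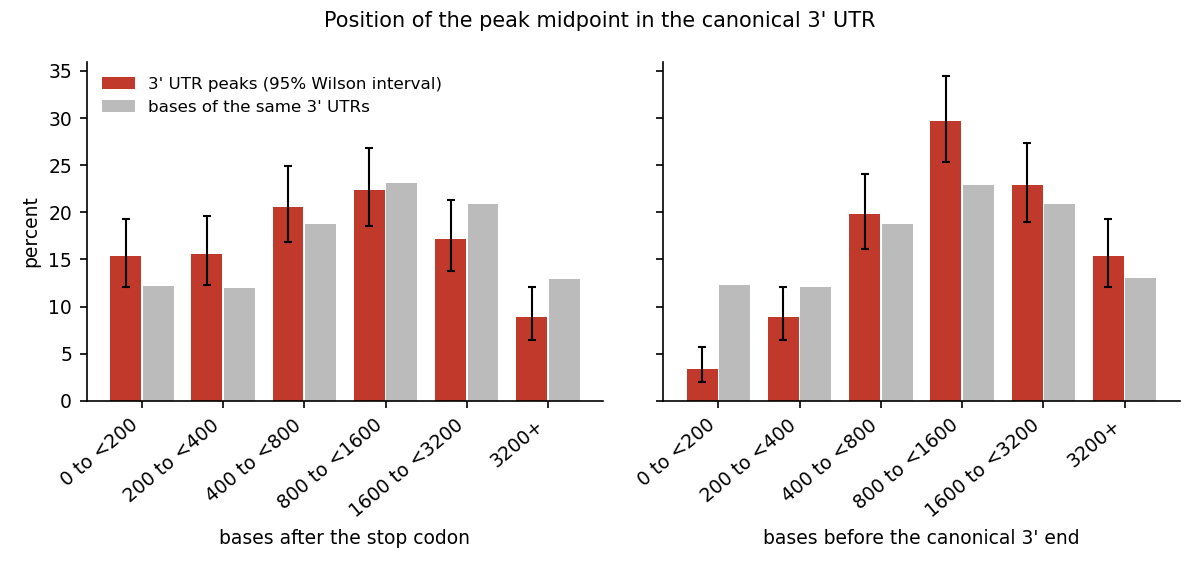
Percent of the 384 peaks in canonical 3' UTRs (red bars, with 95% Wilson intervals) and percent of the bases of the same 3' UTRs (grey bars) by distance in bases from the stop codon (left) and from the annotated 3' end (right). Of the peaks, 3.39% lay within 200 bases of the end, below the grey bar, and from 800 to under 1600 bases before the end the peaks stood above it.

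The share in the part nearest the end varied between chromosomes. It was 0 of 17 on chromosome 7 (upper Wilson limit 18.4%), 1 of 33 on chromosome 20 (3.03%), 9 of 93 on chromosome 22 (9.68%), 8 of 54 on chromosome 15 (14.8%) and 28 of 139 on chromosome 3 (20.1%). Chromosome 10 was the exception, with 17 of 48 (35.4%, 23.4 to 49.6), close to its share of bases of 33.4%. By length of the 3' UTR, the share was 7.46% under 1000 bases (5 of 67), 13.2% from there to 2000 (12 of 91), 16.7% from 2000 to 4000 (21 of 126) and 25% at 4000 or more (25 of 100). It was therefore below 33.3% in every length group, and nearest to it in the longest, whose interval (17.5 to 34.3) includes its 33.1% of bases.

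**Figure D3:**
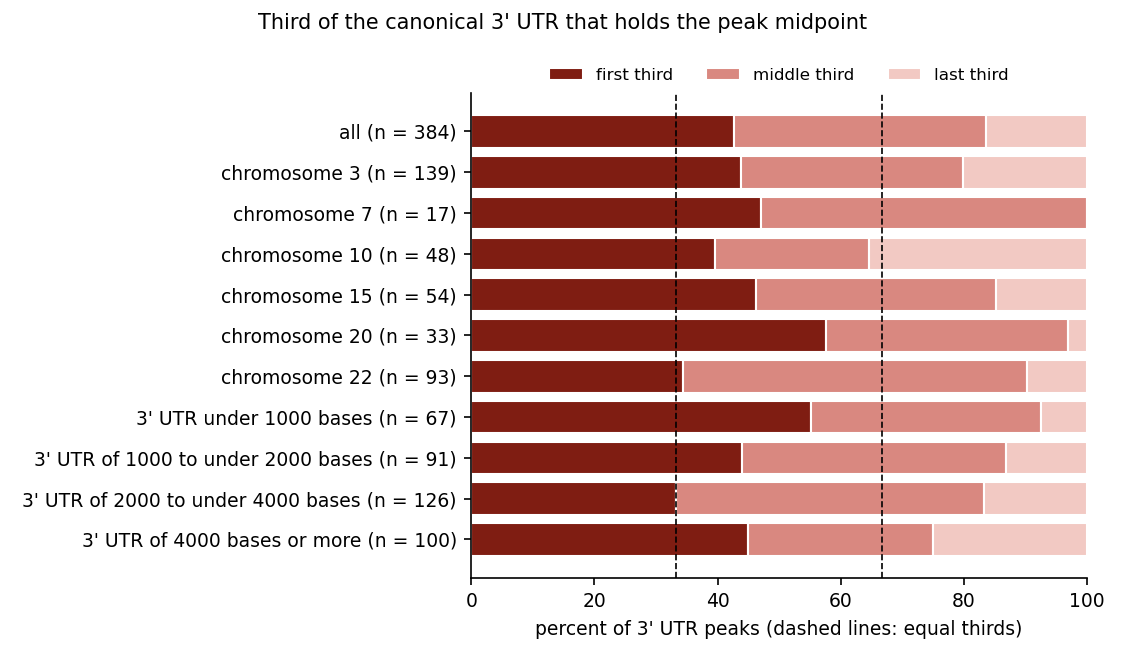
Percent of 3' UTR peaks in the part of the canonical 3' UTR nearest the stop codon, the middle part and the part nearest the annotated end, for all 384, by chromosome and by 3' UTR length, with dashed lines where equal parts would meet. The part nearest the end held 16.4% of the 384, from 0 of 17 on chromosome 7 to 17 of 48 on chromosome 10.

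Annotation offers several ends for many genes. Counting genomic distance to the end of any protein-coding transcript of the gene, 165 of 440 midpoints (37.5%, 33.1 to 42.1) were within 400 bases of an end. This count takes in members outside canonical 3' UTRs and distance on either side of an end. The share of 3' UTR bases that meets the same limit was not computed, so the value cannot be read as high or low. The 13 members that reached past the canonical end were RYK, ETV5, DNAJB11, ARPC1B, TFAM, RPP30, TCF12, HYKK, SDC4, PPDPF, TRMT2A, MMP11 and EIF4ENIF1. Of these, 12 had a poly(A) signal in the peak, and in 9 of them one began 10 to 40 bases before the annotated end, where a working signal usually lies. Any peak that spans the end covers those bases by its position. TFAM, which packages mitochondrial DNA, ended 178 bases after the midpoint of its peak at chr10:60158602-60159001. IGF1R, the receptor of insulin-like growth factor 1, was just outside this set, 202 bases from the end of a 3' UTR of 7091 bases, and held 16 intronic peaks as well. RYK, TFAM, IGF1R and the other names of this paragraph that are not printed above were chosen after their values were seen.

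Genes with longer canonical 3' UTRs more often held a 3' UTR peak. On the 6 chromosomes 4293 protein-coding genes have a canonical 3' UTR, and 406 of them (9.46%) held a 3' UTR peak, whereas 32.1% held a peak of any class. The median length was 2152 bases in the 406 and 1215 bases in all 4293. Of genes with under 500 bases of 3' UTR, 2.32% held a 3' UTR peak (28 of 1208, 1.61 to 3.33). The share was 8.09% from 500 to under 1000 bases (57 of 705), 11.2% from there to 2000 (105 of 937), 13.5% from 2000 to 4000 (128 of 946) and 17.7% at 4000 bases or more (88 of 497, 14.6 to 21.3). These shares count a peak in the 3' UTR of any transcript, whereas the groups are by canonical length. Under 500 bases, 28 genes held such a peak, but only 16 peaks lay in the canonical 3' UTR. Per kilobase, counting peaks in canonical 3' UTRs only, the order was different. There were 0.0983 peaks per kb from 500 to under 1000 bases and 0.0321 at 4000 or more. The share of genes with a peak thus rose with length, but less than in proportion to it above 1000 bases. The shortest canonical 3' UTRs with a peak were those of FAIM, an inhibitor of apoptosis (300 bases), HM13, a signal peptide peptidase (327), ARPC1B, a subunit of the actin-nucleating complex (330), PPDPF (330) and CSPG5, a proteoglycan (365). Besides PEX26 the longest were in HEMK1, a methyltransferase (15752 bases), and CNNM2, a magnesium transporter (13045). Both had their peak near the stop codon, at 256 and 467 bases.

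**Figure D4:**
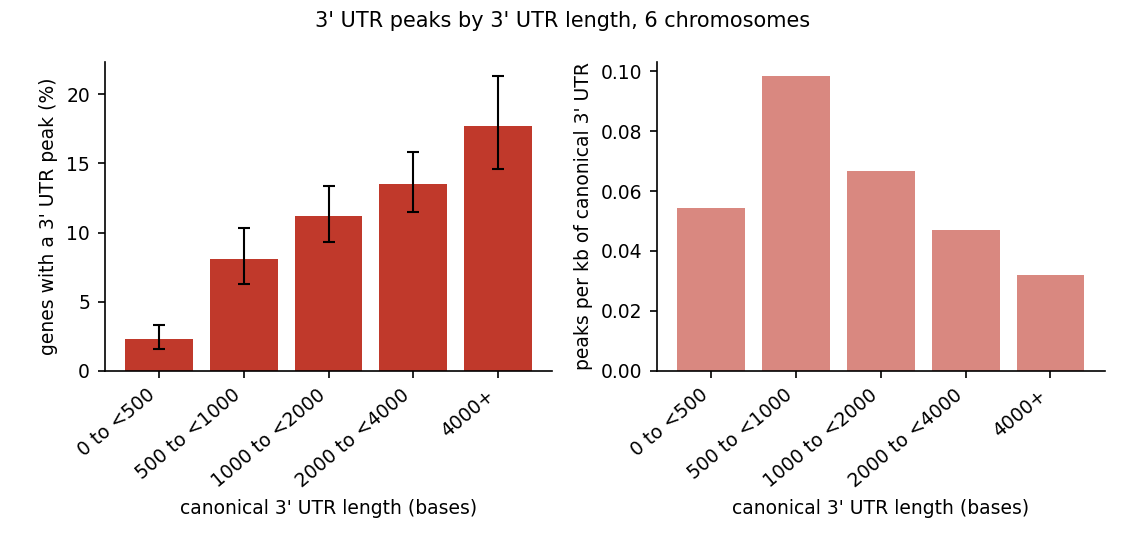
Percent of protein-coding genes on the 6 chromosomes with a peak in the 3' UTR of any transcript (left, with 95% Wilson intervals), by length of the canonical 3' UTR in bases. The right panel gives peaks in canonical 3' UTRs per kb of canonical 3' UTR. The share of genes rose from 2.32% under 500 bases to 17.7% at 4000 or more, while the density was highest, at 0.0983 per kb, from 500 to under 1000 bases.

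The other peaks of the same genes were examined next. In 173 of the 409 genes (42.3%, 37.6 to 47.1) no peak lay outside the 3' UTR. A peak in a coding exon was listed in 119 genes (29.1%), an intronic peak in 136 (33.3%), both in 61 (14.9%), and a peak within 1000 bases of a start in 73 (17.8%). Matching shares for genes without a 3' UTR peak were not computed, so these values cannot be read as high or low. XRN1, the cytoplasmic exonuclease that degrades decapped messages, and CDK6, a cell cycle kinase, were among the genes with a peak in the 3' UTR alone. XRN1 was chosen after its values were seen. CDK6 carried it 6549 bases after the stop in a 3' UTR of 10222 bases (chr7:92237707-92238106). By contrast, BUB1B, a spindle checkpoint kinase, had 2 coding exon and 3 intronic peaks besides the one 34 bases after its stop.

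Genes that act on RNA were described by list, each count read against the 9.46% of all 4293 genes. The lists were drawn up with earlier results of these data known, and no list was tested. Of 19 splicing factors on the 6 chromosomes, 5 held a 3' UTR peak (26.3%, 11.8 to 48.8). They were AQR, a helicase of the spliceosome, RBFOX2 and RBM5, regulators of alternative exons, SF3A1, a subunit of the U2 particle, and SNRPD3, a core Sm protein. The AQR peak (chr15:35145507-35145906) lay 3288 bases after the stop and the RBFOX2 peak (chr22:36137402-36137801) 2652 bases after it, whereas those of RBM5 and SF3A1 lay at 215 and 383 bases. Of 16 proteins of the list of 3' UTR-binding and microRNA-pathway proteins, 4 held a peak in their own 3' UTR (25%, 10.2 to 49.5). IGF2BP2, a stabiliser of bound messages, had it at chr3:185362002-185362401, 1119 bases after the stop. STAU1, which binds double-stranded RNA, had it at chr20:47730502-47730901, 715 bases after the stop. TIAL1, which binds AU-rich elements, had it at chr10:121333602-121334001, 1377 bases after the stop. The fourth was TNRC6B. In these lists 12 of 19 and 13 of 16 genes held a peak of any class, against 32.1% of all genes, so the 3' UTR was not the only class with a high count.

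Among 15 translation factors 3 had a 3' UTR peak (20%, 7.05 to 45.2): EIF2S2, a subunit of the initiation factor that brings the first tRNA, EIF3B, a scaffold of initiation factor 3, and EIF4H, a helper of the eIF4A helicase. Their midpoints lay 36, 307 and 741 bases after the stop. For 33 cell cycle genes the count was 7 (21.2%, 10.7 to 37.8). Besides CDK6 and BUB1B they were AURKA, a mitotic kinase, EP300, an acetyltransferase and coactivator, TFDP2, a partner of E2F factors, and YWHAB and YWHAG, 14-3-3 adaptor proteins. The AURKA peak (chr20:54945002-54945401) had its midpoint 14 bases after the stop, EP300 (chr22:41575202-41575601) 444 bases, YWHAB (chr20:43536002-43536401) 1125 bases, YWHAG (chr7:75957632-75958031) 1064 bases and TFDP2 (chr3:141666002-141666401) 5155 bases. A peak of any class was listed in 10 of the 15 translation factors (66.7%) and 18 of the 33 cell cycle genes (54.5%), again above the 32.1% of all genes.

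No 3' UTR peak was listed in the 6 genes of 3' end processing, the 4 genes of the nuclear exosome and its cofactors, the 6 glycolysis genes or the 8 proteasome genes that lie on these chromosomes. With so few genes a count of 0 allows Wilson shares of up to 39.0%, 49.0%, 39.0% and 32.4%. PKM, the pyruvate kinase gene that the study followed up, had 4 listed peaks on chromosome 15 and none of them in its 3' UTR of 624 bases. SLC2A1, the glucose transporter GLUT1, and MTREX, the gene of MTR4, are on chromosomes 1 and 5 and had no listed peak of any class. Few or no peaks are listed there, so nothing follows from this for binding at either gene. Of 18 genes of liver-secreted proteins only APOL1, a component of high-density lipoprotein, had a 3' UTR peak (chr22:36662302-36662701, 425 bases after the stop).

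Families named by symbol had few members on the 6 chromosomes, and their shares ranged on both sides of the 9.46% of all genes. Counts were 6 of 76 solute carriers (7.89%), 6 of 90 ZNF zinc finger genes (6.67%), 1 of 48 TMEM genes (2.08%), 1 of 15 cytosolic ribosomal protein genes (6.67%, RPL32) and 1 of 14 mitochondrial ones (7.14%, MRPS26). For subunits of NADH dehydrogenase the count was 2 of 10 (20%, NDUFA4 and NDUFB5), for hnRNP genes 1 of 3 (33.3%, HNRNPA2B1) and for E2 ubiquitin-conjugating enzymes 2 of 9 (22.2%, UBE2L3 and UBE2V1, the latter a variant without the catalytic cysteine). The symbols beginning with USP gave 2 of 10 (20%), of which USP18 removes ISG15 from proteins and USP6NL is a regulator of RAB GTPases and no protease. RAB GTPases, which direct vesicle traffic, had the highest share among families with over 10 genes, at 4 of 13 (30.8%, 12.7 to 57.6). They were RAB7A, RAB22A, RAB27A and RAB36, with midpoints 939, 445, 1005 and 1353 bases after the stop. A peak of any class was listed in 7 of the 13 (53.8%), also above the 32.1% of all genes.

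Sequence patterns in the 3' UTR peaks were tested against peaks of the other classes, since position alone had chosen them. Coding and intronic sequence without a peak was not examined. A difference between peak classes therefore cannot be told apart from one between 3' UTR, coding and intronic sequence in general. For 8 patterns on the strand of the gene, the share of peaks with 1 or more matches was compared by a two-sided Fisher's exact test, with Benjamini-Hochberg adjustment over 16 tests of both comparisons. The p-values describe peaks of 1 library. A poly(A) signal (AATAAA or ATTAAA) was present in 39.8% of the 3' UTR peaks (175 of 440, 35.3 to 44.4), 33.1% of coding exon peaks (230 of 694) and 31.6% of later intron peaks (306 of 969). The excess over later introns was 8.19 percentage points (2.82 to 13.6, Fisher's exact test, adjusted p = 0.0237), and with both strands searched it was 6.53 points and did not pass (adjusted exact p = 0.0608). That over coding exons was 6.63 points (0.904 to 12.4) and did not pass the adjustment (Fisher's exact test, adjusted p = 0.104, unadjusted 0.0260). Among peaks with a GC content of 35 to 45%, neither passed (unadjusted exact p = 0.147 and 0.683), with differences of 7.22 and 2.16 points over 149 3' UTR peaks.

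The same share was read in 3' UTR sequence without a peak. In 22759 windows of 400 bases tiled over the 3' UTRs of the 6 chromosomes and free of peaks, 43.2% held a poly(A) signal, and in the 2925 of them from genes with a 3' UTR peak, 42.2%. The share in the peaks, 39.8%, was not above that in either set of windows. The windows were not matched to the peaks for distance from the annotated end, where the peaks were fewer. This difference was not tested. Median GC content was 42.25% in the peaks and 42% in the windows. Among members in canonical 3' UTRs, the 13 that reached past the end had a signal in 12 (92.3%, 66.7 to 98.6). Those within 400 bases of the end that did not reach past it had one in 8 of 34 (23.5%, 12.4 to 39.996), and those farther away in 133 of 337 (39.5%, 34.4 to 44.8). A peak that reaches past the end covers the bases just before it by its position. No share was read for windows that span an end, so 12 of 13 cannot be read as a trait of these peaks.

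The poly(A)-like motif was found in 19 3' UTR peaks (4.32%, 2.78 to 6.65) and in 1.59% of coding exon peaks, a difference of 2.73 points (0.764 to 5.16, Fisher's exact test, adjusted p = 0.0381). Against later introns, with 3.10%, the difference was 1.22 points (-0.784 to 3.72, exact test, adjusted p = 0.436). Windows without a peak held it in 3.75% of cases. Of the 19 matches 10 were a U followed by an unbroken run of A, as in IGF2BP2 and EP300 above. In 11 peaks the match itself held a run of 8 A, so the motif and that run are not independent. Runs of 8 A were present in 9.77% of 3' UTR peaks and 4.61% of coding exon peaks (difference 5.16 points, 2.12 to 8.56, exact test, adjusted p = 0.0138), but in 9.70% of later intron peaks and 9.91% of windows. Among peaks of 35 to 45% GC, where 149 3' UTR peaks remained, neither passed, with differences from coding exon peaks of 4.94 points for runs of A and 2.44 points for the poly(A)-like motif.

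None of the other 5 patterns passed the adjusted test in either comparison on the strand of the gene. Both strands were also searched, since the strand of the RNA is not listed. The difference of 3' UTR peaks from coding exon peaks was then -10.7 points for the PTBP1 motif (71.8% against 82.6%, Fisher's exact test, adjusted p = 0.000373). On the strand of the gene alone it was -5.65 points and did not pass. The search of both strands also counts the reverse complements of the motif, AGAGAG and GAAGA. These are not the PTBP1 motif where the RNA came from the strand of the gene. The -10.7 points therefore cannot be read as a difference in PTBP1 motifs. In that search runs of U and runs of A are the same matches, and their shared difference was 6.43 points (19.5% against 13.1%, adjusted exact p = 0.0144). This adds no separate result for runs of U, whose difference on the strand of the gene was 2.06 points (Fisher's exact test, adjusted p = 0.436). The AU-rich core ATTTA was present in 49.1% of 3' UTR peaks, 42.9% of coding exon peaks, 46.4% of later intron peaks and 49.98% of windows (smallest adjusted p = 0.140, exact test). The Pumilio element TGTANATA, shown for RBM5 and EIF4ENIF1, was in 6.14% of 3' UTR peaks and 6.97% of windows, against 4.76% and 4.54% in the other classes. A run of 8 U was in 11.1% of the peaks and 12.4% of windows. The short motif of the study, CCA followed by C, G or T and a final C, was in 72.3% of 3' UTR peaks and in 69.4% of windows. The pyrimidine motif of the splicing repressor PTBP1 (CTCTCT or TCTTC) was in 47.95% and 49.7%. For every pattern the Wilson interval of the 3' UTR peaks included the share in windows without a peak.

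**Figure D5:**
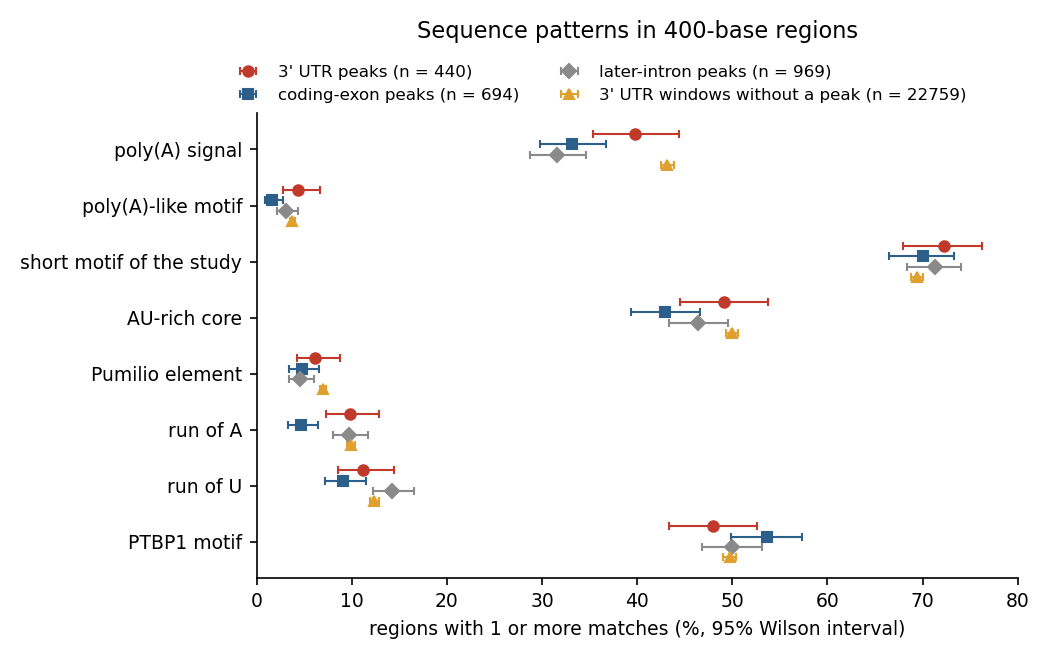
Percent of 400-base regions with 1 or more matches to each of 8 patterns (points, with 95% Wilson intervals) in 3' UTR peaks, coding exon peaks, later intron peaks and 3' UTR windows without a peak. The 3' UTR peaks lay close to the windows throughout, and stood apart from coding exon peaks for runs of A, at 9.77% against 4.61%, and for the poly(A)-like motif, at 4.32% against 1.59%.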

How the data were processed

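Per the labels and the methods of the study, reads were trimmed and mapped to hg19 with TopHat 2.0.13, and peaks were called with RIPSeeker. Settings of the call and the use of the IgG library are not given in the sources used here, and the title of that library calls it an input. The deposited list holds a position, a name, a strand that is always plus and a score set by the authors, 60 or 1, which was not used as a measure of enrichment.

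Positions were compared with the GRCh37 sequence and GENCODE release 44 mapped to it (Python 3.11.15, NumPy 2.4.6, SciPy 1.17.1, Matplotlib 3.10.9). The members, gene lists and patterns were chosen with earlier results of these data known. Shares have Wilson 95% intervals, and differences have Newcombe intervals. Class assignment and Fisher's exact test were checked on simulated data. The peak just inside the start limit was in ZNF197 (chr3:44688802-44689201, 1222 bases from a start), and the one just outside in TUG1 (751 bases). Genes named were those with most 3' UTR peaks, with a peak on a hand-written list, nearest the end with AATAAA, with the longest or shortest 3' UTRs, first on each chromosome (TRNT1, MAFK, KIN, TUBGCP5, SRXN1 and IL17RA), and PKM, SLC2A1 and MTREX. Members of the symbol families and genes outside these rules were named after their values were seen.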

Additional observations from a re-analysis of the deposited data

How the results depend on the processing

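The list holds 1 library without read counts or replicates, so depth, enrichment and spread between cultures could not be assessed, and chromosomes without a listed peak limit every count of genes. No paired analysis was possible because the peak list holds neither replicates nor values for IgG. Of 96 alternatives, 65 kept the direction and side of the threshold of a test, stayed within 1.5 times a count or stayed within the interval of a share. Such values could still move, as the count of patterns against coding exons did from 2 to 3 with 1 peak per gene. Settings restricted to GC content of 35 to 45%, and those without members that have exons on both strands, were added after seeing the data. Where a value changed for a reason other than the definition itself, the cause was not tested.

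The share of peaks in 3' UTRs was 18.4% with any base in a 3' UTR, 11.4% with all 400 bases there and 11.6% with canonical 3' UTRs only, and 12.4 to 14.9% with a chromosome left out. The share near the end was 3.39% within 200 bases, 41.1% within 1000 bases and 37.5% for any protein-coding end. The last was counted over all members and has no share of bases beside it. Genes with a 3' UTR peak numbered 257 (without chromosome 3) to 389 (without chromosome 7). The excess of poly(A) signals over coding exon peaks was 4.44 points with AATAAA only (unadjusted exact p = 0.0967) and 2.16 points within the GC range, and the excess over later introns was 7.22 points there. With both strands searched, 5 patterns passed against coding exons and 0 against later introns. The 5 include runs of A and runs of U, which are then the same matches counted separately. They also include the PTBP1 motif, whose matches then take in its reverse complements. Within the GC range 0 passed in either comparison, with 149 3' UTR peaks left. Differences from coding exons were there 4.94 points for runs of A and 2.44 for the poly(A)-like motif. The counts in the report were 2 and 1.

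Differences that did not pass the test changed sign as follows. With both strands, the short motif gave -1.73 points against coding exons and -2.32 against later introns, where the poly(A)-like motif gave -1.29, the AU-rich core -1.32 and runs of A -3.47. Runs of U gave -3.76 against coding exons within the GC range. With 1 peak per gene, the short motif gave -0.213 and runs of A -0.767 against later introns. The excess of poly(A) signals over coding exons passed with 1 peak per gene (8.92 points, adjusted exact p = 0.0303) and with both strands (8.71 points, adjusted exact p = 0.0144), whereas that over later introns was lost with both strands (6.53 points, adjusted exact p = 0.0608).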
